A study of Mus musculus with 3 samples.

Results

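PD-1 and the other co-receptors considered here are 9 genes, Pdcd1, Icos, Lag3, Cd244, Ctla4, Cd27, Cd28, Thy1 and Cd7, taken by symbol from the 27998 genes listed in each of 3 single-cell count tables of mouse bone marrow progenitors. All 9 symbols occurred once in each table. The populations were sorted from C57BL/6 mice, with 1 library of 10x Chromium v2 chemistry per group, so no difference below has a replicate check and none was tested. ILCpro_KO holds Lin- Kit+ 2B4+ a4b7+ cells of Tcf7EGFPnull/- mice that were positive for the Tcf7 reporter. ILCpro_WT holds cells of the same gate from Tcf7EGFP/+ mice, so "WT" means heterozygous for the reporter allele. ALP holds all-lymphoid progenitors of Tcf7EGFP/+ mice that were IL-7Ra+ Flt3high a4b7- within the Lin- Kit+ 2B4+ gate. Tcf7 encodes TCF-1, a transcription factor of T cell and innate lymphoid cell (ILC) development. The protein of Cd244, 2B4, was a sort marker in all 3 gates.

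Co-receptors are surface proteins that raise or lower the response of a lymphocyte to its main activating signal. PD-1, LAG-3 and CTLA-4 restrain T cells, while CD28, ICOS and CD27 promote their growth and survival. Among bone marrow progenitors PD-1 marks committed ILC precursors (ILCP), which arise from early ILC progenitors (EILP) and express the transcription factor PLZF, the product of Zbtb16.

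The filters kept 716 ILCpro_KO, 1829 ILCpro_WT and 810 ALP cells, with 4384061, 6094683 and 4115605 unique molecular identifiers (UMIs, counted transcripts). The median cell had 5309, 2897 and 4544.5 UMIs in the same order. Levels are UMIs per 1000000 UMIs of the library (CPM) with exact 95% Poisson intervals in parentheses, and folds are CPM ratios with exact conditional binomial intervals. Both cover counting error only. Tcf7 itself stood at 57.3 CPM in ILCpro_KO, 362 CPM in ILCpro_WT and 1.46 CPM in ALP; which part of the gene is missing from the null allele is not given in the labels, so these levels check no label. At most 4 cell barcodes were shared by any pair of libraries.

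Pdcd1 and Icos were the co-receptor genes with the lowest ILCpro_KO level relative to ILCpro_WT, and Lag3 was the one with the highest. Of the 8 members that reached 5 CPM in 1 or both of these libraries, 2 were 2-fold or more lower in ILCpro_KO on the log2(CPM + 10) scale, 1 was 2-fold or more higher and 5 lay between. Among all 9551 genes measured this way 0.869% passed as lower and 1.48% as higher. The members' median log2 ratio was -0.23, beside 0.09 over all genes. Ctla4 alone was under the minimum.

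Pdcd1 encodes PD-1, an inhibitory receptor, and lies on chromosome 1 (94038305 to 94052553, minus strand; GENCODE vM21, GRCm38). It stood at 26.7 CPM (22.1 to 32.0) in ILCpro_KO, at 123 CPM (114 to 132) in ILCpro_WT and at 2.19 CPM (1.0 to 4.15) in ALP, from 117, 748 and 9 UMIs. The 3 intervals did not overlap. Pdcd1 was 4.60-fold lower (3.78 to 5.64) in ILCpro_KO than in ILCpro_WT, and 56.1-fold higher (29.4 to 123) in ILCpro_WT than in ALP. With every cell thinned to 1000 UMIs, a Pdcd1 UMI was found in 3.35% of ILCpro_KO, 11.3% of ILCpro_WT and 0.123% of ALP cells, against 9.36%, 25.2% and 1.11% without thinning. As a background, 0 of 59 neutrophil-monocyte-like ILCpro_KO cells had a Pdcd1 UMI after thinning, which by a limit of 3 counts allows a share of up to 5.08% at that depth, so shares under that limit are not told from background by these cells alone. Their median depth before thinning was 8365 UMIs, and 0 of the 59 had a thinned UMI of Icos, Lag3, Ctla4, Cd27, Cd28 or Thy1 either.

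Promoters of RefSeq (GRCm38.p6) were searched for the core TCF/LEF motif CTTTGA on both strands, from 250 bases before to 50 bases after the start of transcription. Windows were at hand for 4 of the 9 members, Pdcd1, Cd244, Ctla4 and Cd27. The motif was in 2 of these 4 windows, those of Ctla4 and Cd27, and in 16.0% of all 32851 promoter windows. The Pdcd1 and Cd27 promoters are shown because Pdcd1 was 4.60-fold lower in the Tcf7-null library while Cd27 differed little, and of this pair only the Cd27 window held the motif. Both run 5′ to 3′ along the gene, to base 30 after the start; capitals mark the motif, read here from the opposite strand, 16 bases after the Cd27 start.
Pdcd1 promoter, minus strand, chr1:94052524-94052803: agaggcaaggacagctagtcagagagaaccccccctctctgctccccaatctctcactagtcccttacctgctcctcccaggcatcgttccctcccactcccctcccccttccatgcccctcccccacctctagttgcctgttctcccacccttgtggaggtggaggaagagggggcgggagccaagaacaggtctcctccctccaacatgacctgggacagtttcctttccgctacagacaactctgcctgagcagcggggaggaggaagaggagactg
Cd27 promoter, minus strand, chr6:125236998-125237277: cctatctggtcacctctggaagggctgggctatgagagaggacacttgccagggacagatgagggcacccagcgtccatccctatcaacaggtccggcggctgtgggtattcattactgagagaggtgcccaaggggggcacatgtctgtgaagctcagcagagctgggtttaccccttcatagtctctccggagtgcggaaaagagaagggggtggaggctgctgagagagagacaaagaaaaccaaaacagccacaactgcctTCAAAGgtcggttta
A match is a run of letters and not a shown binding site, and a window without one says nothing of binding elsewhere.

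Lag3, the gene of an inhibitory receptor that binds MHC class II (chromosome 6, 124904361 to 124911705, minus strand), went the other way. It stood at 29.0 CPM (24.2 to 34.5) in ILCpro_KO, 7.22 CPM (5.25 to 9.69) in ILCpro_WT and, in ALP, 4.62 CPM (2.78 to 7.21). ILCpro_KO was the highest, while the intervals of ILCpro_WT and ALP overlapped. The ILCpro_KO level was 4.01-fold that of ILCpro_WT (2.83 to 5.79), and the ratio of ILCpro_WT to ALP was 1.56 (0.894 to 2.84). A Lag3 UMI was found in 4.05% of ILCpro_KO, 0.767% of ILCpro_WT and 0.741% of ALP cells after thinning. Without thinning the shares were 12.99%, 2.24% and 2.35% in the same order. Ctla4 (chromosome 1, 60887000 to 60915832, plus strand), the gene of an inhibitory receptor that competes with CD28 for its ligands, had 4 UMIs in ILCpro_KO, 1 in ILCpro_WT and 2 in ALP. At this depth it was barely detected in any library.

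Icos, Cd28 and Ctla4 are neighbours on chromosome 1, with 113640 bases between Cd28 and Ctla4 and 62094 between Ctla4 and Icos. Icos (60977927 to 61000320, plus strand) encodes an inducible costimulator that group 2 ILCs (ILC2) also use. It stood at 3.42 CPM (1.92 to 5.64) in ILCpro_KO, 33.8 CPM (29.3 to 38.7) in ILCpro_WT and, in ALP, 4.86 CPM (2.97 to 7.51), from 15, 206 and 20 UMIs. ILCpro_WT stood alone, with overlapping intervals in the other libraries. Icos was thus 9.88-fold lower (5.85 to 18.0) in ILCpro_KO than in ILCpro_WT, and 6.96-fold higher (4.39 to 11.6) in ILCpro_WT than in ALP. After thinning, an Icos UMI was found in 0.419% of ILCpro_KO, 3.78% of ILCpro_WT and 0.247% of ALP cells, and without thinning in 2.09%, 6.73% and 2.47%.

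Cd28 (60716800 to 60773359, plus strand), the gene of the main T cell costimulator, stood at 10.7 CPM (7.88 to 14.3) in ILCpro_KO, 13.3 CPM (10.6 to 16.5) in ILCpro_WT and, in ALP, 32.1 CPM (26.8 to 38.0). Cd27, the gene of a receptor of the TNF receptor family that is found on lymphoid progenitors, stood at 136 CPM (126 to 148), 169 CPM (159 to 179) and 258 CPM (243 to 274) in the same order. Both were highest in ALP. The Cd28 ratio of ILCpro_KO to ILCpro_WT was 0.807 (0.551 to 1.17), an interval that includes no difference, and that of Cd27 was 0.809 (0.730 to 0.895). Relative to ALP, ILCpro_WT had 0.414 times the Cd28 level (0.310 to 0.551) and 0.653 times the Cd27 level (0.599 to 0.712). A Cd28 UMI was found in 0.978% of ILCpro_KO, 1.32% of ILCpro_WT and 2.72% of ALP cells after thinning. Cd27 was found in 14.8% of ILCpro_KO, 16.3% of ILCpro_WT and 22.7% of ALP cells after thinning, and in 49.6%, 40.0% and 65.1% without. The unthinned order of the ILC progenitor libraries is thus the reverse of the thinned one. In the neutrophil-monocyte-like ILCpro_KO cells Cd27 stood at 32.0 CPM, with 0 cells after thinning. The Cd27 gene overlaps Vamp1 on the opposite strand (chromosome 6, 125232622 to 125237010, minus strand), and the strand setting of the counting is not given in the sources used here.

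Cd244 (chromosome 1, 171559193 to 171609746, plus strand) encodes 2B4, a receptor of the SLAM family that can activate or inhibit. It stood at 89.9 CPM (81.2 to 99.2) in ILCpro_KO, 45.4 CPM (40.3 to 51.1) in ILCpro_WT and, in ALP, 43.5 CPM (37.4 to 50.4). The level in ILCpro_KO was 1.98-fold that of ILCpro_WT (1.69 to 2.31), while ILCpro_WT and ALP overlapped (ratio 1.05, 0.863 to 1.27). All 3 gates asked for 2B4 protein on the cells, so the sort may have set these levels in part, which was not tested. A Cd244 UMI was found in 10.2% of ILCpro_KO, 4.38% of ILCpro_WT and 3.58% of ALP cells after thinning, beside 1.69% of the neutrophil-monocyte-like cells. Cd244 overlaps Ly9, another SLAM family gene, on the opposite strand.

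Thy1, whose glycoprotein marks T cells and many ILCs, and Cd7, the gene of a receptor of early T and NK cells, were both lowest in ALP. Thy1 stood at 36.3 CPM (30.9 to 42.4) in ILCpro_KO, 71.9 CPM (65.3 to 78.9) in ILCpro_WT and, in ALP, 0.972 CPM (0.265 to 2.49). Cd7 stood at 90.8 CPM (82.1 to 100.2), 65.0 CPM (58.7 to 71.7) and 8.75 CPM (6.13 to 12.1) in the same order. The intervals of Thy1 put ILCpro_WT highest and those of Cd7 put ILCpro_KO highest. Thy1 was 1.98-fold lower (1.65 to 2.39) in ILCpro_KO than in ILCpro_WT, and Cd7 was 1.40-fold higher (1.21 to 1.61). Against ALP, ILCpro_WT held 73.9 times the Thy1 level (28.7 to 273, from 4 UMIs in ALP) and 7.43 times the Cd7 level (5.27 to 10.8). A Thy1 UMI was found after thinning in 4.33% of ILCpro_KO cells, 6.58% of ILCpro_WT cells and 0 of 810 ALP cells, which by the limit of 3 counts allows a share with a UMI of up to 0.370% at that depth. Without thinning the shares were 12.4%, 16.5% and 0.494% in the same order. A Cd7 UMI was found in 8.52% of ILCpro_KO, 5.53% of ILCpro_WT and 1.11% of ALP cells after thinning, beside 1.69% of the neutrophil-monocyte-like cells. Thy1 lies on chromosome 9 (44043384 to 44048579, plus strand) and Cd7 on chromosome 11 (121036747 to 121039418, minus strand), where the antisense gene Gm11775 overlaps it. The plot of co-receptor levels by library shows all 9 genes.

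**Figure D1:**
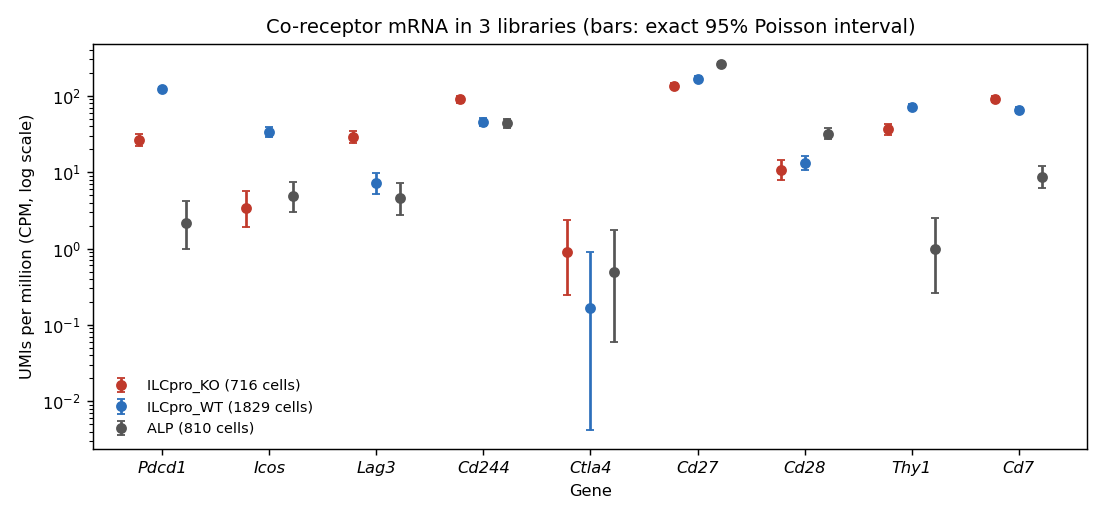
CPM (log axis) of the 9 genes in ILCpro_KO (red), ILCpro_WT (blue) and ALP (grey), with exact 95% Poisson intervals as bars and 1 library per group. Pdcd1, Icos and Thy1 are highest in ILCpro_WT, Lag3, Cd244 and Cd7 in ILCpro_KO, and Cd27 and Cd28 in ALP, while the Ctla4 intervals overlap.

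In ILCpro_WT against ALP 4 of the 8 members, Pdcd1, Thy1, Cd7 and Icos, were at least 2-fold higher and 0 at least 2-fold lower, beside 2.11% and 3.06% of all 9616 genes. The median log2 ratio was 0.90 over the 8 members and -0.07 over all genes. The gates differ in a4b7, Flt3 and IL-7Ra as well as in Tcf7. ILCpro_WT stands in both comparisons, so they are not independent of each other. With a pseudocount of 1 CPM, Cd28 also passed as at least 2-fold lower.

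Part of the Thy1, Cd28 and Cd27 RNA of ILCpro_KO lay in cells with T cell markers. A T cell-like cluster of 23 cells, all from ILCpro_KO, held 61 Thy1 UMIs (38.4% of the Thy1 UMIs of that library) and 17 Cd28 UMIs (36.2%). It held 6.35% of the Cd27 UMIs, and 0 of Pdcd1, Lag3 or Cd244. Of the 8 T cell markers 7 had a UMI in ILCpro_KO, all but Cd8a, and 7 in ILCpro_WT, all but Cd4. Their summed level was 237 CPM in ILCpro_KO, 306 CPM in ILCpro_WT and 109 CPM in ALP, and 105 CPM in ILCpro_KO without the 23 cells. Without these cells the log2 ratio of Thy1 was -1.32 in place of -0.82, so that 3 members were then at least 2-fold lower, and that of Cd28 was -0.45 in place of -0.17. The 12 conventional DC markers summed to 1617 CPM in ILCpro_KO, 752 CPM in ILCpro_WT and 806 CPM in ALP, and the 11 neutrophil-monocyte markers to 4745, 494 and 979 CPM, with Xcr1 at 0 in ILCpro_KO, Ngp and Camp at 0 in ILCpro_WT and Batf3 at 0 in ALP. Without the clusters of other lineages the log2 ratios of Pdcd1, Lag3, Cd244 and Thy1 were -1.42, 1.61, 1.19 and -1.02, so 3 members then passed 2-fold as lower and 2 as higher. Left out were the conventional DC-like, neutrophil-monocyte-like, T cell-like and B cell-like clusters and unnamed cluster 11, led by Prss34 and Mcpt8. Unnamed clusters 6 and 9, described below, were kept although 5 conventional DC and 5 NK cell markers were at least 2-fold higher in them, respectively. Cluster 6 held 53.5% of the Lag3 UMIs of ILCpro_KO. The values without the T cell-like cells alone were computed after the data were seen.

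To place the members by stage, all cells were clustered on other genes, leaving out the members and the cell type markers, which gave 14 clusters numbered by size. ILCP-like cluster 0 was named from 8 of 9 markers (Zbtb16, Il7r, Gata3, Rora, Il18r1, Cxcr6, Id2 and Ltb) and held 11 ILCpro_KO, 532 ILCpro_WT and 0 ALP cells. EILP-like cluster 3, named from 4 of 6 markers (Tcf7, Tox, Tox2 and Ikzf2), held 32, 420 and 0. Its leading genes also included Zbtb16, and its counterparts at finer and coarser resolution stayed unnamed, so the name is weak. The EILP marker Nfil3 stood at 31.7 CPM in its ILCpro_WT cells, against 159.5 CPM in those of unnamed cluster 2. In cluster 0, 4 EILP markers were at least 2-fold higher as well. Tcf7 stood at 565 CPM in ILCpro_WT cells of cluster 0 against 522 CPM in those of cluster 3, and Tox at 353 against 266 CPM. Tcf7 and Tox thus did not set cluster 3 apart from cluster 0. Unnamed cluster 2, led by Cpa3 and Nfil3, held 140, 335 and 4 cells, and unnamed cluster 9, led by Stab2, Klrd1 and Icos, held 1, 103 and 0. In cluster 9 as many NK cell markers as ILCP markers, 5 of 9 each, were at least 2-fold higher, and Eomes, Klrd1 and Klrk1 were among its 10 leading genes. At resolution 1.5 an NK cell-like cluster with 23 ILCpro_WT cells stood apart from an unnamed cluster of 123, led by Stab2 and Icos. The latter had 7 ILCP markers at least 2-fold higher. At resolution 0.5 a cluster of 60 cells led by Stab2, with Icos among its leading genes, was named ILCP-like. Their overlap with cluster 9 was not counted. Unnamed cluster 6 held 158, 79 and 0; Bhlhe41, Lingo4, Asb2, Cd7 and Lag3 were among its 10 leading genes and 5 of 12 conventional DC markers were at least 2-fold higher in it. Nearly all cells of clusters 0, 3 and 9 came from ILCpro_WT, so library and cell type cannot be told apart there.

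Pdcd1 was low in cluster 2 and highest in the ILCP-like cells of ILCpro_WT. It stood at 7.46 CPM (3.22 to 14.7) in cluster 2, 130 CPM (111 to 151) in EILP-like cells, 340 CPM (311 to 371) in ILCP-like cells and 75.7 CPM (49.0 to 112) in cluster 9. No neighbouring pair in the order 2, 9, EILP-like, ILCP-like overlapped except cluster 9 and EILP-like cells, whose intervals met between 111 and 112 CPM. Of all Pdcd1 UMIs of ILCpro_WT 65.8% lay in the ILCP-like cells. Zbtb16, one of the naming markers, stood at 84.9, 380, 594 and 48.5 CPM in clusters 2, 3, 0 and 9. ILCP-like cells thus held 2.62 times the Pdcd1 level of EILP-like cells (2.20 to 3.13).

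Icos followed another order. It stood at 2.80, 6.04, 76.0 (62.5 to 91.6) and 245 CPM (195 to 305) in clusters 2, 3, 0 and 9 of ILCpro_WT, so cluster 9 was highest. ILCP-like cells held 12.6 times the level of EILP-like cells (6.17 to 29.9). Clusters 0 and 9 together held most Icos UMIs of ILCpro_WT, 53.4% and 39.3%. Split instead by Zbtb16 UMIs, the 839 ILCpro_WT cells with one held 14.96 CPM of Icos, against 51.4 CPM in the 990 cells without, while Pdcd1 stood at 190 against 59.6 CPM. Icos was thus lower in the cells with Zbtb16, and Pdcd1 higher. This split pools all clusters and so does not set ILCP-like against EILP-like cells. Cluster 9, the highest in Icos, stood at 48.5 CPM of Zbtb16. At resolutions 0.5 and 1.5 the Icos log2 ratio between the counterparts of the ILCP-like and EILP-like clusters was 2.39 and 1.45. It was 2.42 at resolution 1.0.

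Thy1 was low in cluster 2 at 7.46 CPM, then 50.6 CPM in EILP-like, 178 (157 to 201) in ILCP-like cells and 185 CPM (141 to 237) in cluster 9, the last pair overlapping. The ILCP-like level was 3.51 times the EILP-like one (2.68 to 4.67). Split by Zbtb16 UMIs, Thy1 stood at 88.7 CPM in cells with one against 56.1 CPM in cells without, a log2 ratio of 0.58 in place of 1.63 and so under 2-fold. Cd28 stood at 8.39, 12.8, 24.9 and 18.2 CPM in clusters 2, 3, 0 and 9, with a ratio of 1.94 (1.06 to 3.68) between ILCP-like and EILP-like cells. Cd27 varied less, at 167, 205, 209 and 99.9 CPM, with the lowest of these in cluster 9 and 300.2 CPM in the ALP-like cells of the ALP library. The ratio of ILCP-like to EILP-like cells was 1.02 for Cd27, 1.06 for Cd7 and 0.933 for Cd244. The Cd7 result depended on how the cells were cut. Its log2 ratio was 0.07 here, 1.07 at resolution 1.5, where 4 members passed 2-fold as higher, and -0.29 in the split by Zbtb16 UMIs.

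In ILCpro_WT Cd7, Lag3 and Cd244 had their higher levels outside the ILCP-like cells. Cd7 stood at 66.4 CPM in the ILCP-like cells of ILCpro_WT, against 145 CPM in cluster 9 and 334 CPM in cluster 6. Lag3 stood at 8.29 CPM in ILCP-like cells, 25.7 CPM in cluster 6 and 27.6 CPM in conventional dendritic cell (DC)-like cluster 4. These Lag3 levels rest on 12, 6 and 9 UMIs. The intervals of clusters 6 (9.42 to 55.9) and 4 (12.6 to 52.3) overlapped that of the ILCP-like cells (4.29 to 14.5). Cd244 stood at 37.3 CPM in ILCP-like cells, 66.2 CPM in cluster 2 and 85.6 CPM in cluster 6. Between ILCP-like and EILP-like cells 3 of the 8 members with at least 5 CPM were at least 2-fold higher (Pdcd1, Icos and Thy1) and 0 at least 2-fold lower, beside 2.72% and 0.608% of 9369 genes. Their median log2 ratio was 0.55, beside 0.03 over all genes.

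**Figure D2:**
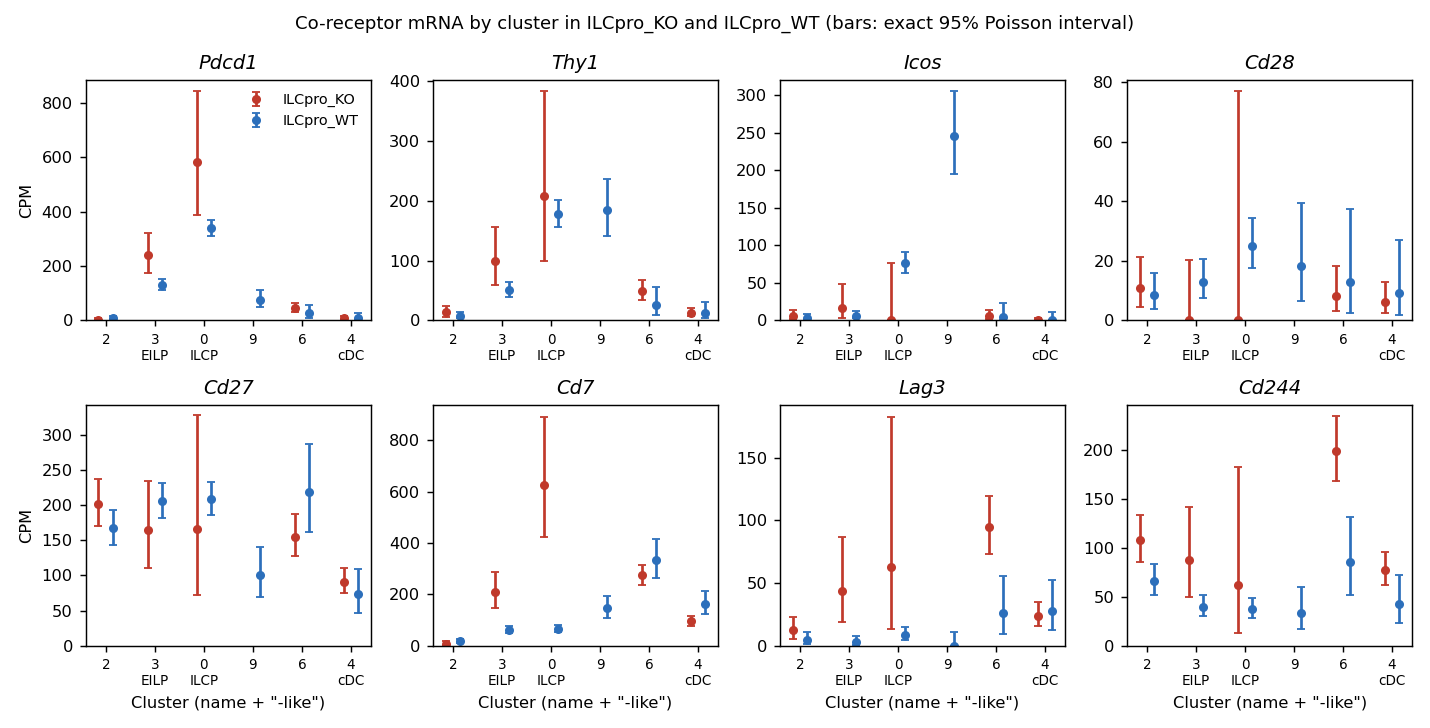
CPM of 8 co-receptor genes in the clusters of ILCpro_KO (red) and ILCpro_WT (blue), with exact 95% Poisson intervals as bars; the names under the cluster numbers stand for EILP-like, ILCP-like and conventional DC-like. Pdcd1 peaks in ILCP-like cells, Icos in cluster 9, Cd7, Lag3 and Cd244 are high in cluster 6, and the few ILCpro_KO cells of clusters 0 and 3 give wide intervals.

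The 2 ILC progenitor libraries filled these clusters unequally. ILCP-like cells made up 1.54% of ILCpro_KO and 29.1% of ILCpro_WT cells, EILP-like cells 4.47% and 23.0%, and cluster 6 22.1% and 4.32%. Conventional DC-like cells made up 22.3% and 5.19%, and cluster 2 19.6% and 18.3%. Genes that differ between the libraries entered the clustering, so these shares are a description.

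Where ILCpro_KO cells did fall in the ILCP-like and EILP-like clusters, Pdcd1 was not low. It stood at 584 CPM (388 to 843) in the 11 ILCP-like cells of ILCpro_KO, against 340 CPM (311 to 371) in those of ILCpro_WT. Cd7 stood at 625 CPM (422 to 893) in the same 11 cells, against 66.4 CPM in those of ILCpro_WT. In EILP-like cells Pdcd1 stood at 241 CPM in 32 ILCpro_KO cells, against 130 CPM in ILCpro_WT, a ratio of 1.85 (1.30 to 2.60). Cd7, Lag3, Cd244 and Thy1 were also higher in the EILP-like cells of ILCpro_KO, at 3.32 times (2.20 to 4.93), 14.5 times (3.89 to 65.8), 2.19 times (1.17 to 3.89) and 1.95 times (1.09 to 3.32) the ILCpro_WT level. The Lag3 ratio rests on 8 UMIs in ILCpro_KO and 4 in ILCpro_WT. The latter level, 3.02 CPM, was near the 3-UMI floor of 2.26 CPM. These clusters were under the minimum of 50 cells set for comparison, and their ILCpro_KO cells come from 1 library. EILP-like cells held 37.6%, ILCP-like cells 23.9% and cluster 6 27.4% of the Pdcd1 UMIs of ILCpro_KO. In dividing cluster 7, Pdcd1 had 1 UMI in 49 ILCpro_KO cells against 37 UMIs in 165 ILCpro_WT cells, 2.07 against 37.8 CPM.

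Within the clusters with at least 50 cells of both libraries Cd244 was higher in ILCpro_KO each time. Its levels were 108 against 66.2 CPM in cluster 2 (ratio 1.63, 1.17 to 2.27), 77.8 against 42.9 CPM in conventional DC-like cells (1.81, 1.02 to 3.46) and 199.8 against 85.6 CPM in cluster 6 (2.33, 1.46 to 3.94). Lag3 was 3.67 times higher (1.60 to 10.4) in cluster 6, at 94.3 against 25.7 CPM, from 68 and 6 UMIs. In the conventional DC-like cells, however, its ratio was 0.853. Cluster 6 held 53.5% of the Lag3, 49.7% of the Cd7 and 36.6% of the Cd244 UMIs of ILCpro_KO. Cd7, in contrast, was not higher in these clusters, with ratios of 0.823 (0.630 to 1.08) in cluster 6 and 0.585 (0.416 to 0.830) in conventional DC-like cells. At resolution 1.5 its log2 ratio in the conventional DC-like cells was 0.13 in place of -0.72. At least 2-fold differences were found for 0 of 2 members with 20 CPM or more in cluster 2, 0 of 4 in cluster 4 and 2 of 6 in cluster 6 (Lag3 and Cd244, both higher). The same count over all genes, in either direction, was 1.11%, 4.41% and 8.06%. With clusters built at resolution 0.5, 43 of the 79 ILCpro_WT cells of cluster 6 lay in a conventional DC-like cluster, and the count there was 0.

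The cluster shares were then equalised by weighting the ILCpro_WT level in each of the 13 clusters present in both libraries by its share of ILCpro_KO UMIs, a computation chosen after the data were seen. These clusters hold 97.7% of ILCpro_KO UMIs. Any cluster with 1 or more cells of each library was used, so some levels rest on few cells. ILCpro_WT had 1 cell in cluster 5, 5 in cluster 1, 5 in cluster 13 and 9 in cluster 10, where ILCpro_KO had 500114 UMIs. ILCpro_KO had 1 cell in cluster 9. No intervals were computed for the weighted levels. Pdcd1 stood at 27.3 CPM in ILCpro_KO over these clusters, 22.9 CPM in ILCpro_WT with ILCpro_KO shares and 123 CPM in ILCpro_WT as measured. For Icos the values were 3.27, 3.22 and 33.8 CPM, and for Thy1 22.9, 17.8 and 71.9 CPM. The T cell-like cluster, with 0 ILCpro_WT cells, is left out here. It held 38.4% of the Thy1 UMIs of ILCpro_KO, and Thy1 stood at 36.3 CPM over all ILCpro_KO cells. At equal shares the point values of Pdcd1, Icos and Thy1 in ILCpro_KO were thus close to or above those of ILCpro_WT. Within clusters, however, Pdcd1 was lower in ILCpro_KO in dividing cluster 7. It stood at 2.69 against 7.46 CPM in cluster 2, and in cluster 8 at 0 UMIs in 37 ILCpro_KO cells against 21.5 CPM in ILCpro_WT. The intervals overlapped in clusters 2 and 8. Tcf7 stood at 57.7, 198 and 362 CPM and was lower at equal shares too. Cd244 stood at 92, 46.9 and 45.4 CPM, so its difference was about as large at equal shares, and Lag3 stood at 29.7, 14.1 and 7.22 CPM. Cd7 stood at 92.5, 108 and 65.0 CPM. The plot of levels with equalised shares shows these 3 values for each gene.

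**Figure D3:**
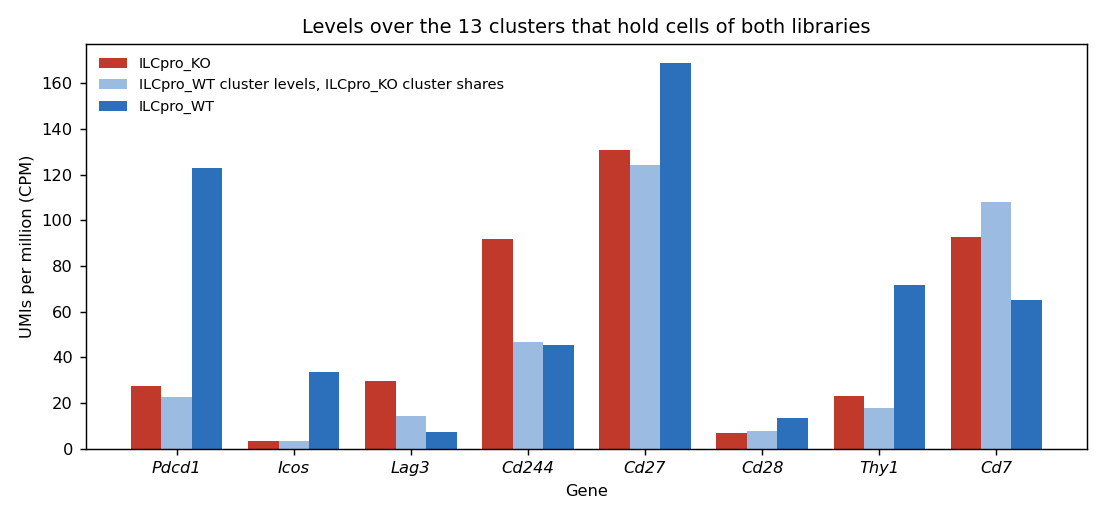
CPM of 8 co-receptor genes over the 13 clusters with cells of both libraries, in ILCpro_KO (red), in ILCpro_WT cluster levels weighted by ILCpro_KO cluster shares (light blue) and in ILCpro_WT as measured (dark blue). The light bar lies near the red one for Pdcd1, Icos and Thy1 and near the dark one for Cd244. Bars are point values without intervals, and the T cell-like cluster is left out.

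Cells with a Pdcd1 UMI were compared with the other cells of the same library, thinned to 1000 UMIs. In ILCpro_WT 207 cells had one and 1618 did not. Rora, a nuclear receptor of ILC2 development, was found in 65.2% of cells with Pdcd1 and 26.4% of cells without. Tox2, an HMG-box factor, was found in 51.2% against 16.6%, Zbtb16 in 44.4% against 21.6% and Il7r, the interleukin 7 receptor chain, in 22.7% against 8.59%. Nfil3, an early ILC regulator, was less frequent with Pdcd1, at 1.93% against 7.60%. Of the other members Thy1 was found in 11.6% against 5.93%, while Icos (3.86% against 3.77%) and Cd27 (18.8% against 15.9%) had overlapping intervals. In ILCpro_KO, where 24 cells had a Pdcd1 UMI, Zbtb16 was found in 37.5% against 3.03%, Rora in 29.2% against 2.60%, and Icos in 0 of 24. Cd7 was found there in 25% against 7.95%, with intervals that just overlapped. Exactly 2 members were found together in 7.54% of ILCpro_KO, 7.34% of ILCpro_WT and 1.98% of ALP cells, and at least 3 in 1.54% of ILCpro_KO, 1.42% of ILCpro_WT and 0 of 810 ALP cells.

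**Figure D4:**
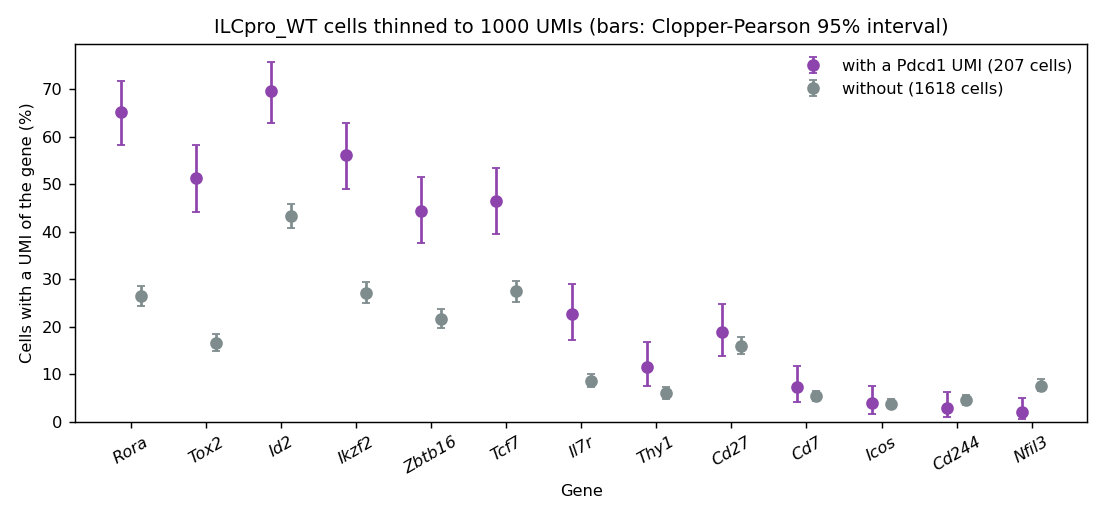
Share of ILCpro_WT cells with a UMI of each gene, after thinning to 1000 UMIs, among 207 cells with (purple) and 1618 cells without (grey) a Pdcd1 UMI; bars are Clopper-Pearson 95% intervals. Rora, Tox2, Id2, Ikzf2, Zbtb16, Tcf7 and Il7r are found more often with Pdcd1, and Icos is not.

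Over 14 library-by-cluster groups of at least 50 cells, the genes among 4308 whose log2(CPM + 10) was most like that of Pdcd1 were Rora (Pearson r 0.96), Rxrg (0.96), Podnl1 (0.95), Txk (0.93) and Lrrc52 (0.92). These groups share libraries and depth, so r is a description. For Thy1 they were Podnl1, Ctsw, Rora, Pdcd1 and Lmo4, with Pdcd1 at 0.92. Lag3 and Cd244 were alike at 0.82, Icos and Thy1 at 0.80 and Pdcd1 and Icos at 0.63. For Cd7 the most alike was Batf3, a DC transcription factor, at 0.92. Eef2k, Prdx2, Foxp1, Cxxc5 and Sox4 were most like Cd27, and Ccnd2, Calhm2, Rapgef1, Ctr9 and Heg1 most like Cd244.

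Other receptors of these families were given the same 2-fold rule. Of 14 other inhibitory receptors listed 5 reached the minimum and 0 were at least 2-fold higher or lower in ILCpro_KO than in ILCpro_WT, and of 17 other costimulatory receptors 8 reached it and 0 passed. Their median log2 ratios were 0.46 and -0.13. Among 3 ligands measured of 11 listed, Lgals3, the gene of the LAG-3 ligand galectin-3, was the single one past 2-fold, at 109.9 CPM in ILCpro_KO against 33.8 CPM in ILCpro_WT. Of 17 signalling partners 15 reached the minimum and 0 passed 2-fold, with a median of 0.10. The ligands of PD-1, Cd274 and Pdcd1lg2, were under the minimum.

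Between ILCpro_WT and ALP, Tnfrsf9, the gene of the costimulator 4-1BB, had 91 UMIs in ILCpro_WT and 0 in ALP, at least 20.5-fold higher against a floor of 3 UMIs. Cd48, the gene of the 2B4 ligand, was lower at 75.6 CPM in ILCpro_WT against 186 CPM in ALP. Grb2, the gene of a signalling adaptor, was higher at 268 CPM in ILCpro_WT against 98.6 CPM in ALP. Cd72, the gene of an inhibitory receptor of B cells, was lower, with a log2 ratio of -1.09. In ILCP-like against EILP-like cells of ILCpro_WT, Vsir, the gene of the inhibitory receptor VISTA, stood at 56.0 against 17.4 CPM and the costimulatory gene Tnfrsf25 at 22.1 against 2.26 CPM. Cd84, a SLAM family gene, stood at 94.7 against 31.0 CPM, and Lgals3 at 44.2 against 6.04 CPM.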

How the data were processed

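Bone marrow progenitors were profiled as single cells, with 1 library per group. The values deposited by the authors are counts of UMIs for each gene in each barcode. The tools listed in the submitters' processing notes are Cell Ranger 2.0.1, STAR 2.5.1b and bcl2fastq 2.17, with the build mm10 and no roles given. Of 716 ILCpro_KO, 1834 ILCpro_WT and 812 ALP barcodes, 716, 1829 and 810 with at least 500 genes and at most 10% mitochondrial UMIs were kept. Doublets were kept; an alternative removed 4, 27 and 5 cells. Counts were summed per library or cluster and scaled to its total. Log2 ratios used a pseudocount of 10 CPM, with a minimum of 5 CPM in either group (20 CPM within clusters). Intervals are exact at 95%. Thinning to 1000 UMIs left out 4 ILCpro_WT cells. With 1 library per group no test was made.

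Cells were clustered with scanpy 1.11.5 and leidenalg 0.10.2 (resolution 1.0, 15 neighbours, 30 components, 2000 variable genes) without the members, the cell type markers and genes that are sex-linked, ribosomal, mitochondrial or of the cell cycle. A cluster was named for the type with the largest share of its listed markers at least 2-fold higher. The name needed at least 3 such markers, with 1 or more markers of that type among the 10 leading genes of the cluster. It also needed no other type with more markers among these 10, and the first of them no marker of other types alone. Parts of this naming rule were set with the data in view. The members and all lists were chosen with earlier results of these data known. Beside the members, genes are named by these rules: at most 4 per list and comparison past 2-fold, and the 5 genes most like Pdcd1, Cd27, Cd7, Thy1 and Cd244. Some ligands and receptors that pass in more than 1 comparison are described once. Not every gene these rules name is reported here. Alternatives were other cell filters, scalings, pseudocounts, minimums, depths, resolutions and a split by Zbtb16 UMIs. The pipeline was tested on simulated data.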

Additional observations from a re-analysis of the deposited data

How the results depend on the processing

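With 1 library per group there are no replicates to leave out. No paired analysis was possible because each group has 1 library. Of 92 summary values under an alternative 78 were labelled close to the reported ones and 14 moved. For counts of members, close meant at most 1.5-fold apart, and for medians it meant within a margin of counting error. The label is thus wide. It covers the stage median of 0.06 in place of 0.55 in the split by Zbtb16 UMIs. Also covered are 3 members lower in place of 2 without clusters of other lineages, and 4 higher by stage in place of 3 at resolution 1.5. In ILCpro_KO against ILCpro_WT 2 members were at least 2-fold higher, in place of 1, with the mean of per-cell CPM and without clusters of other lineages. In ILCpro_WT against ALP 1 member was lower, in place of 0, with a pseudocount of 1 CPM. The members' median there was 1.56 with that pseudocount and with a minimum of 20 CPM, and 0.24 with no minimum, in place of 0.90. With all ILCpro_WT cells split by Zbtb16 UMIs in place of the stage clusters, 1 member was lower and 1 higher in place of 0 and 3. The Icos log2 ratio was then -1.30 in place of 2.42. At resolution 0.5 the members higher in cluster 6 numbered 0 in place of 2, and at resolution 1.5 its counterpart had 46 ILCpro_WT cells, too few for a value. At 500 UMIs a Pdcd1 UMI was found in 1.54% of ILCpro_KO, 7.0% of ILCpro_WT and 0 of 810 ALP cells, and among ILCpro_WT cells with Pdcd1 Icos was found in 1.56% and Zbtb16 in 28.1%. The intervals of ILCpro_WT cells with and without Pdcd1 then overlapped for Tcf7 (21.1% against 17.3%) and Thy1 (7.03% against 3.88%). Fewer cells with a UMI follow from the lower depth; for the other changes the cause was not tested. Of 261 single-gene values 28 moved and 1 reversed. Over 10 alternatives the ILCpro_KO to ILCpro_WT log2 ratio ran from -2.16 to -1.42 for Pdcd1, -2.98 to -1.17 for Icos, 1.14 to 1.87 for Lag3 and 0.80 to 1.19 for Cd244. Without clusters of other lineages Cd27 was at -0.02 and Cd7 at 0.82. The median of all genes was 0.12 with a pseudocount of 1 CPM and 0.01 without ribosomal and mitochondrial genes.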
